A study of Mus musculus with 55 samples.

Results

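Maturation of the mouse oocyte was examined by comparing 10 wild-type MII oocytes with 18 wild-type fully grown oocytes (FGOs), 28 of the 55 samples of the series, chosen by their labels alone. Each library was made from a single oocyte with SMART-Seq HT, a kit that copies full-length cDNA from poly(A) tails. FGOs came from ovaries of females aged 10 to 12 weeks and were freed of cumulus cells by washing through a capillary. The labels give no age or hormone treatment for the MII oocytes; for fertilization, the study collected ovulated oocytes from oviducts after inhibin antiserum and chorionic gonadotropin, from females whose stated ages reached above those of the FGO donors. Both groups were wild type, and the study describes its mutant females as mainly C57BL/6J. The 24 FGOs with ADD domain mutations in Dnmt3L, Dnmt3a or both entered the model of the spread and are given beside some results. The labels name neither the female nor the day of collection of an oocyte, so the p-values measure the spread between oocytes and not between females.

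An FGO has stored the maternal mRNA needed until the embryo transcribes its own genome, and its transcription is nearly silent. During maturation the nuclear envelope breaks down, the oocyte completes meiosis I and arrests at metaphase of meiosis II (MII), and stored transcripts are either translated after lengthening of their poly(A) tails, shortened and degraded, or left in place. A level in this section is a share of a library in CPM (counts scaled to a fixed total per library), so a fall or a rise is relative to the other transcripts of the same oocyte. Because the kit primes on poly(A), a loss of RNA and a loss of its tail cannot be told apart, and neither can a gain of either.

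Total counts ranged from 11510790 to 17216121 in FGOs and from 10383381 to 15198715 in MII oocytes. An FGO had 12911 to 14290 genes at 1 CPM or more (median 13295), and an MII oocyte 12484 to 13005 (median 12597). The mean difference, MII minus FGO, was -772 genes (adjusted p = 4e-05, two-sided permutation test), and this also held against each of 2 sets of FGOs. These sets, replicates 1 to 8 and 9 to 18, differ in the share of mapped reads that the study lists for each library, and were also tested separately. The 100 genes of most counts took 13.9% ± 0.33 (SD, n = 18) of an FGO library and 14.1% ± 0.18 (n = 10) of an MII library, a difference that did not pass the test (adjusted p = 0.075, permutation test). All 37 mitochondrially encoded genes were at 0 in each of the 52 oocyte libraries, so their share could not be compared. All 16 oocyte markers were measured, with a sum of 10693 to 15931 CPM in FGOs and 11008 to 11591 CPM in MII oocytes.

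Of 15784 genes tested, 1421 (9.0%) were lower in MII oocytes by over 2-fold at an adjusted p under 0.05 (edgeR's quasi-likelihood test), whereas 31 (0.196%) were higher. A further 12628 (80%) were kept, meaning that the 90% interval of the fold change lay within 2-fold in either direction. Kept does not mean unchanged, since 1602 of these genes were lower and 2504 higher at an adjusted p under 0.05 (quasi-likelihood test). With the interval held within 0.5 on the log2 scale, 8669 genes (54.9%) were kept. With no minimum fold, 3560 genes (22.6%) were lower and 2610 (16.5%) higher, so that most rises were small. In 280 genes (1.77%) all 10 MII oocytes lay below all 18 FGOs, and in 92 (0.583%) all lay above. A fall was more frequent among rare transcripts. Among 2263 genes under 1 CPM in FGOs 20.7% were lower by over 2-fold, among 5131 genes at 1 to 10 CPM 14.9%, among 5869 at 10 to 100 CPM 3.02% and among 2521 at 100 CPM or more 0.555%. In the last class 98.9% were kept, and the median log2 fold change was 0.12. Of the 191 lower genes at 10 CPM or more, 185 were called against FGO replicates 1 to 8 alone and 139 against replicates 9 to 18 alone, with 133 called against both. For the 1230 lower genes under 10 CPM these counts were 1034, 611 and 504.

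**Figure D1:**
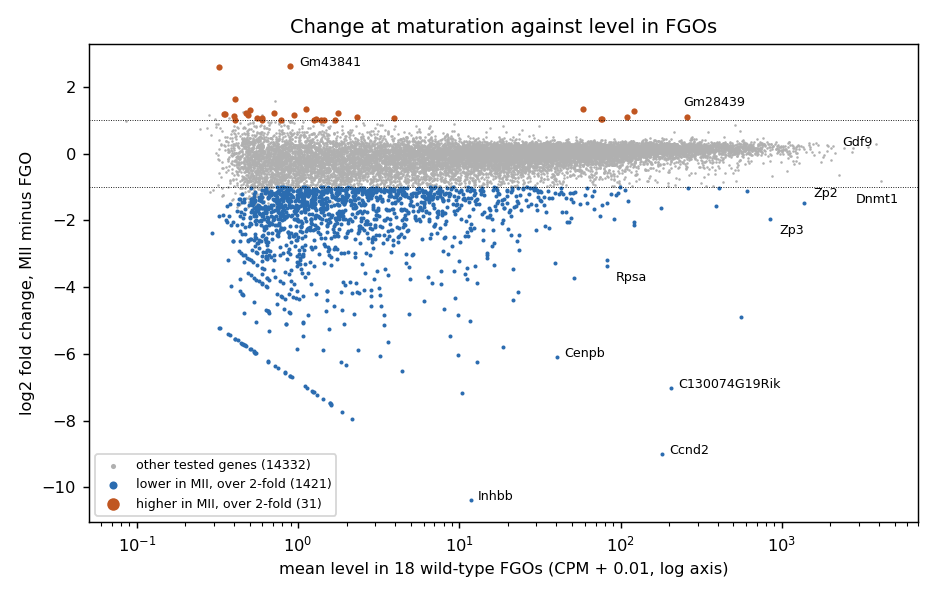
Log2 fold change from FGO to MII oocyte (vertical axis) of 15784 genes against their mean level in 18 wild-type FGOs (horizontal log axis, CPM plus 0.01), with dotted lines at 2-fold. The 1421 lower genes (blue) spread to the left at low levels, the 31 higher genes (orange) are few, and abundant transcripts lie near 0. The diagonal at the lower left holds genes without a count in any MII oocyte, whose fitted change is no measured size.

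Many ribosomal protein genes, whose products build both subunits of the ribosome, fell. Of 79 measured, 28 fell by over 2-fold (35.4%, against 9.0% of all genes), 69 fell at any fold and 2 rose, with a median log2 fold change of -0.75 against -0.046 over all genes tested. Their summed level was 3576 to 4408 CPM in FGOs (median 4030) and 2473 to 2886 CPM in MII oocytes (median 2590), with no overlap. Rpsa, a component of the small subunit, stood at 75.7 to 97.0 CPM in FGOs (median 80.3) and at 2.72 to 17 CPM in MII oocytes (median 7.17), a 10.4-fold fall (log2 -3.38 ± 0.16 SE, adjusted p = 2.6e-24, quasi-likelihood test). Every MII oocyte thus lay far below every FGO.

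Among the other small subunit genes, Rps19 fell from a median of 23.5 to 2.89 CPM, Rps27 from 22.1 to 3.68, Rps13 from 35.6 to 7.16 and Rps27a, which encodes ubiquitin fused to a ribosomal protein, from 46.4 to 10.7. Of the large subunit, Rpl10a fell from a median of 20.5 to 5.99 CPM, Rpl18 from 23.3 to 7.11, Rpl8 from 77.2 to 24.2, Rpl34 from 49.8 to 18.2 and Rpl26 from 61.3 to 29.9 CPM. In each of these 9 genes the groups did not overlap. Rpl26 was nearest to the limit, at log2 -1.02 ± 0.05, and fell just short of 2-fold (-0.97) against FGO replicates 1 to 8 alone. Other members were kept and are named after their values were seen: Rps24, Rpl32 and Rpl17 had log2 fold changes of 0.02, 0.02 and 0.07. Rpl4 rose slightly, from 147 to 244 CPM in FGOs to 232 to 262 CPM in MII oocytes (log2 0.29 ± 0.06), and so did Rpl13a (0.40 ± 0.09). Under the other normalizations 28 to 30 of the 79 fell by over 2-fold, and of the 28 genes, 25 were called against both sets of FGOs. MII replicate 8 had the highest of the 10 MII values in 21 of these 28 genes. Many of these genes have processed pseudogenes that can share their reads. Of 22 such pseudogenes tested by name, 6 fell by over 2-fold, 3 fell less, 12 had no call and 1 rose.

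Nuclear genes of the respiratory chain were measured for 74 members. Of these, 6 fell by over 2-fold (8.11%, against 9.0% of all genes), 47 fell at any fold (against 22.6% of all genes) and 9 rose, and the median log2 fold change was -0.28. By level in FGOs, 3.02% of all genes at 10 to 100 CPM fell by over 2-fold and 0.555% of those at 100 CPM or more. The 74 members summed to a median of 2682 CPM in FGOs, and the 31 proteasome genes named below to 2782 CPM. Atp5o, a stalk subunit of ATP synthase, stood at 36.7 to 52.5 CPM in FGOs and 10.2 to 16.8 CPM in MII oocytes (log2 -1.76 ± 0.07, adjusted p = 1.7e-26, quasi-likelihood test). Cox17, which carries copper to cytochrome c oxidase and was not in the list, fell more, from 11.2 to 19.6 CPM to 1.14 to 2.40 CPM (log2 -3.04 ± 0.11). The other 5 were Uqcrc1 (-1.80), Ndufa11 (-1.42), Ndufs7 (-1.10), Atp5j (-1.09) and Ndufa12 (-1.01), subunits of complexes I and III and of ATP synthase. Ndufa12 fell short of 2-fold against FGO replicates 1 to 8 alone (-0.93). The groups did not overlap for Atp5o and Cox17. In the proteasome, 3 of 31 genes fell by over 2-fold (9.68%, against 9.0% of all genes and the lower shares by level given above). Psmb6, a catalytic subunit of its core, stood at 80.3 to 105 CPM in FGOs and 29.2 to 58.8 CPM in MII oocytes (log2 -1.23 ± 0.06), Psmb5, another catalytic subunit, fell by 1.17 and Psmd13 of the lid by 1.20 on the log2 scale (-0.95, short of 2-fold, against FGO replicates 9 to 18 alone), while 8 members rose by less than 2-fold.

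**Figure D2:**
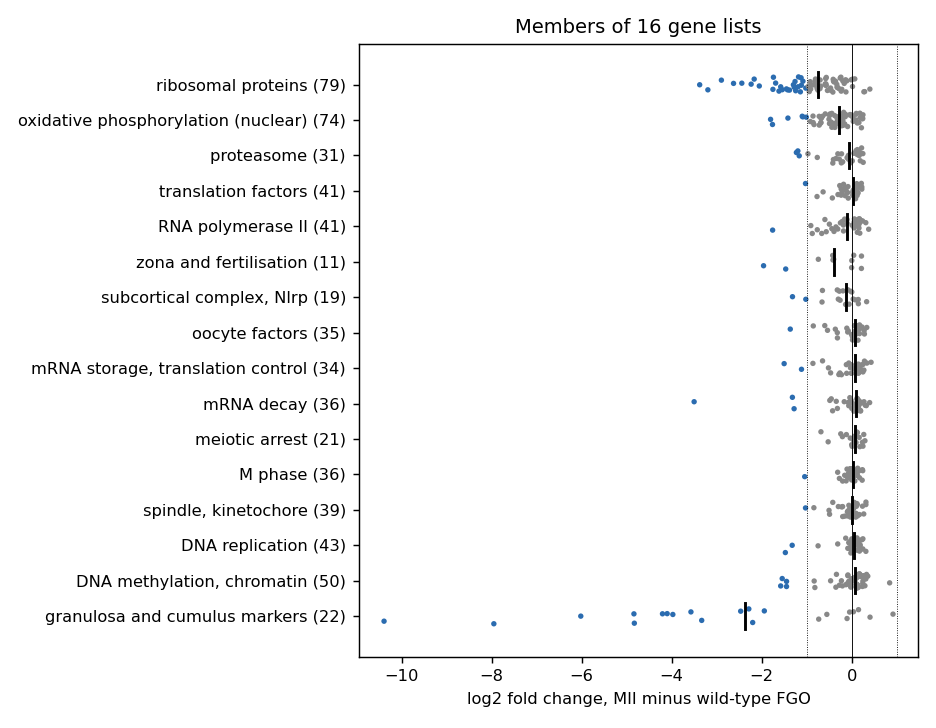
Log2 fold change from FGO to MII oocyte of each tested member of 16 gene lists (points, number of members in parentheses), with the median of each list as a black bar, genes lower by over 2-fold in blue and dotted lines at 2-fold. Ribosomal protein genes have a median of -0.75, granulosa and cumulus markers of -2.38, and the lists for meiosis and translation control lie around 0.

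The zona pellucida is the glycoprotein coat that the growing oocyte secretes and that sperm bind at fertilization. Transcripts of its proteins fell to different extents. Zp3 stood at 668 to 1059 CPM in FGOs (median 838) and at 184 to 298 CPM in MII oocytes (median 209), a 3.89-fold fall (log2 -1.96 ± 0.07, adjusted p = 4.8e-29, quasi-likelihood test). Zp2 stood at 790 to 2007 CPM (median 1290) and 427 to 657 CPM (median 483), a fall of 1.47 ± 0.10 on the log2 scale. For neither gene did any MII oocyte reach an FGO, and both held against each set of FGOs (log2 -2.04 and -1.87 for Zp3, -1.59 and -1.33 for Zp2). Zp1 fell by only 0.42 ± 0.06 (median 474 and 365 CPM) with overlapping groups. Of the 11 genes of zona and fertilization, 2 fell by over 2-fold (18.2%, against 9.0% of all genes). A further 4 fell less (Zp1, Astl, Cd9 and Cd81), and 2 rose (Rgs2 and Izumo1r, the egg's receptor for the sperm protein Izumo1). Oosp1, Oosp2 and Oosp3 had no call. For Cd9 the log2 fold change was -0.76 against FGO replicates 1 to 8 and -0.05 against replicates 9 to 18, where it was not called, and Cd81 was called against neither set alone (-0.71 and -0.74).

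The 3′ ends of 2 transcripts that fell and 2 that stayed are shown because the libraries were primed at the poly(A) tails that follow them. Each line is the last 30 bases of the transcript in GENCODE M21 (GRCm38, the assembly also named mm10), as mRNA sense, with the poly(A) signal AATAAA in capitals. The 3′ untranslated regions are 13 bases long in Zp3 (chr5:135988595-135988624, plus strand), 49 in Zp2 (chr7:120132340-120132369, minus strand), 360 in Gdf9 (chr11:53437875-53437904, plus strand) and 1028 in Ccnb1 (chr13:100778650-100778679, minus strand).
Zp3, fell: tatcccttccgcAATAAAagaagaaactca
Zp2, fell: gactgcagttaaactcttgtcttacatgtt
Gdf9, stayed: acggaagAATAAActgttgatggcataaat
Ccnb1, stayed: gttgctAATAAAcatagttttcgattttca
The signal was present in Zp3, Gdf9 and Ccnb1, and these letters were not in the last 30 bases of Zp2.

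Over all genes at 10 CPM or more with a coding transcript in GENCODE, the share that fell was highest for the shortest transcripts. Of 66 genes with transcripts under 600 nt, 21.2% fell by over 2-fold, against 7.96% of 289 at 600 to 1000 nt, 2.88% of 590 at 1000 to 1500 nt, 1.34% of 1638 at 1500 to 2500 nt, 1.47% of 2373 at 2500 to 4000 nt and 2.21% of 3037 at 4000 nt or more. Leaving out ribosomal protein genes, the shares were 6% of 50 under 600 nt, 5.43% of 258 at 600 to 1000 nt and 1.23% of 1630 at 1500 to 2500 nt. Motifs known to control stored mRNA were counted in the same genes. The cytoplasmic polyadenylation element (TTTTAT or TTTTAAT in the last 100 bases, sense strand) was present in 19.3% of 135 genes lower by over 2-fold with such a region and in 21.6% of all 7602. The AU-rich motif TATTTAT was present in 27.3% and 31.1% of 3′ untranslated regions of the lower genes and of all genes, and the Pumilio motif TGTANATA in 25% and 28.7%. Both were sought over the whole region, whose median length was 843.5 nt in the lower genes and 1101 nt in all. The shares were not adjusted for length. These shares are descriptions of annotated sequence, and the 3′ ends used in oocytes were not measured.

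Among the other transcripts with the lowest p-values were 2 enzymes of pyrimidine metabolism. Upp1, uridine phosphorylase, stood at 79.9 to 146 CPM in FGOs and 19.5 to 37.8 CPM in MII oocytes (log2 -2.14 ± 0.09, adjusted p = 5.3e-26, quasi-likelihood test). Tyms, which makes thymidylate for DNA synthesis, stood at 51.1 to 73.7 CPM and 17.5 to 33.4 CPM (log2 -1.48 ± 0.06). Both groups of values were tight and well apart. Naa38, a subunit of an N-terminal acetyltransferase, fell from a median of 18.2 to 4.92 CPM, Pafah1b3, a subunit of a platelet-activating factor acetylhydrolase, from 11.7 to 2.41 CPM and 1110020A21Rik, annotated as a non-coding RNA from a bidirectional promoter, from 15.9 to 4.45 CPM, each without overlap.

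Among the regulators of stored mRNA, Cpeb1 and Pabpc1 fell by over 2-fold. Of 34 genes of mRNA storage and translational control 30 were kept (88.2%), 6 fell and 15 rose at any fold. As a background for this and the following lists, 80% of all genes were kept, 94.9% of those at 10 to 100 CPM in FGOs and 98.9% of those at 100 CPM or more. At any fold, 22.6% of all genes fell and 16.5% rose. Of the 2521 genes at 100 CPM or more, 236 fell and 1213 rose by less than 2-fold. Cpeb1, which binds the cytoplasmic polyadenylation element and is itself destroyed as a protein during maturation, stood at 520 to 785 CPM in FGOs (median 605) and 233 to 352 CPM in MII oocytes (median 283), a fall of 1.12 ± 0.06 on the log2 scale (adjusted p = 6.9e-22, quasi-likelihood test). Pabpc1, the general poly(A)-binding protein, stood at 31.5 to 91.1 CPM and 11.6 to 31.8 CPM (log2 -1.50 ± 0.22), whereas its oocyte relative Pabpc1l was kept (0.14 ± 0.06). Ybx1 rose, with all MII oocytes (372 to 465 CPM) above all FGOs (181 to 369 CPM) and a log2 fold change of 0.43 ± 0.08, and Ybx2 rose by 0.25 ± 0.05; both encode proteins that coat mRNA. Dazl, an RNA-binding protein of germ cells, had a value of -0.01 ± 0.07.

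Of 36 genes of mRNA decay, 33 were kept (91.7%), 9 fell and 11 rose at any fold, and Btg4, which brings the CCR4-NOT deadenylase to maternal mRNA, stood at 983 to 1569 CPM in FGOs (median 1192) and 1222 to 1460 CPM in MII oocytes (median 1339; log2 0.13 ± 0.06, adjusted p = 0.10, quasi-likelihood test). Cnot3, a subunit of that deadenylase, rose without overlap from 365 to 706 CPM to 720 to 794 CPM (log2 0.40 ± 0.08). The 3 that fell by over 2-fold were rare transcripts: Zcchc11, a terminal uridylyltransferase also called Tut4, fell from a median of 8.32 to 0.762 CPM, Edc3, an enhancer of decapping, fell by 1.32 and Zfp36l1, which binds AU-rich elements, by 1.28 on the log2 scale. Edc3 had -1.72 against FGO replicates 1 to 8 and -0.86 against replicates 9 to 18, where it was not called. Of 41 translation factors, 40 were kept (97.6%) and 1, Eif3a, fell by over 2-fold (median 239 and 128 CPM, log2 -1.03 ± 0.16), though by 0.98 against FGO replicates 9 to 18 alone.

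All 21 genes of meiotic arrest and resumption were kept, as were 35 of 36 genes of M phase (97.2%) and 37 of 39 of the spindle and kinetochore (94.9%), where 80% of all genes and 98.9% of those at 100 CPM or more were kept. Cyclin B1 (Ccnb1) stood at 312 to 456 CPM in FGOs and 304 to 375 CPM in MII oocytes (log2 -0.09 ± 0.05), Mos, the kinase that keeps the MII arrest, at 186 to 301 CPM and 198 to 248 CPM (-0.11 ± 0.06), and Cdk1 had a value of -0.07 ± 0.04. The groups overlapped for all of these. Wee2, the oocyte kinase that inhibits Cdk1, rose without overlap from 429 to 662 CPM to 663 to 740 CPM (log2 0.29 ± 0.06). Those that fell by over 2-fold were Rps6ka2 (-1.05) of the Mos and MAP kinase pathway and Spc24 (-1.03) of the kinetochore, and both fell short of 2-fold against FGO replicates 9 to 18 alone (-0.95 and -0.96).

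**Figure D3:**
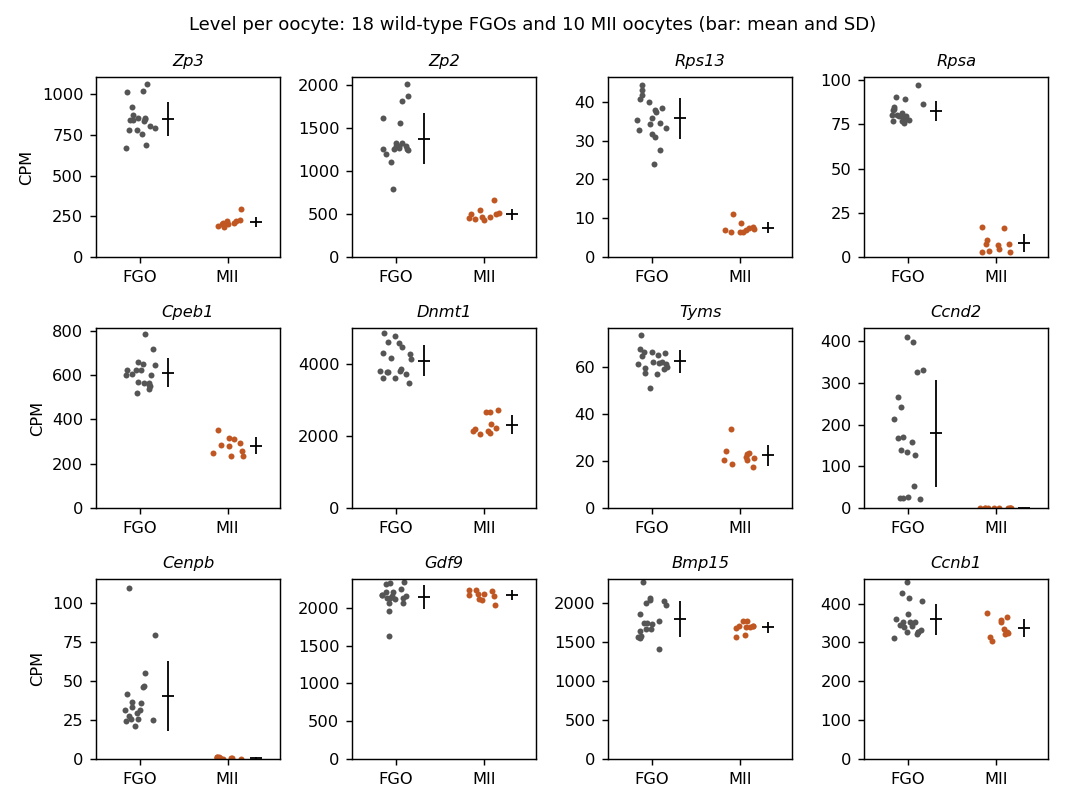
Level in CPM of 12 genes in each of 18 wild-type FGOs (grey) and 10 MII oocytes (orange), with mean and SD beside the points and axes starting at 0. Zp3, Zp2, Rps13, Rpsa, Cpeb1, Dnmt1, Tyms, Ccnd2 and Cenpb have no overlap between stages, and Gdf9, Bmp15 and Ccnb1 overlap.

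Of 35 oocyte-specific factors, 33 were kept (94.3%, where 80% of all genes were), and Gdf9 and Bmp15, growth factors that the oocyte sends to its cumulus cells, had log2 fold changes of 0.02 ± 0.04 and -0.09 ± 0.06. Dppa5a, a KH-domain protein, fell from a median of 45.1 to 19.7 CPM (log2 -1.37 ± 0.18), and the transcription factor Figla, which activates the zona genes during growth, fell by 0.54 ± 0.10. Of 19 genes of the subcortical maternal complex and the Nlrp family, 17 were kept (89.5%) and 9 fell at any fold. Khdc3, a member of that complex, stood at 30.5 to 81.7 CPM in FGOs and 12.6 to 26.4 CPM in MII oocytes (log2 -1.32 ± 0.16), and Nlrp2 at 303 to 460 CPM and 157 to 260 CPM (log2 -1.02 ± 0.06, and -0.98 against FGO replicates 1 to 8 alone). The complex members Ooep (-0.02) and Nlrp5 (-0.30) were kept.

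In the DNA methylation and chromatin list, 44 of 50 genes were kept (88%, against 80% of all genes). At any fold 18 of its genes rose and 8 fell, where 16.5% of all genes rose and 22.6% fell. Dnmt1, the maintenance DNA methyltransferase and the most abundant of these transcripts, stood at 3477 to 4873 CPM in FGOs (median 4011) and 2057 to 2722 CPM in MII oocytes (median 2216). Its groups did not overlap, at a log2 fold change of -0.82 ± 0.05 (adjusted p = 2.4e-18, quasi-likelihood test). The de novo methyltransferase Dnmt3a had -0.02 ± 0.05, its cofactor Dnmt3l 0.24 ± 0.08, Uhrf1, which guides Dnmt1 to hemimethylated DNA, 0.11 ± 0.04 and Dppa3, which protects the maternal genome, -0.02 ± 0.05. Dnmt3l had 0.07 and Uhrf1 0.09 against FGO replicates 9 to 18 alone, neither of them called. Tet3, the dioxygenase of the zygote, rose by 0.20 ± 0.04, and Zfp57, which binds imprinted regions, by 0.33 ± 0.06. The 4 genes that fell by over 2-fold, Kdm5a (-1.58), Ring1 (-1.55), Ehmt2 (-1.45) and Kdm4c (-1.45), encode histone demethylases, a Polycomb ligase and a histone methyltransferase and were at 16.6 CPM or less on average in FGOs. Against FGO replicates 9 to 18 alone Ring1 (-0.98) and Kdm4c (-0.72) were not called.

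Of 43 DNA replication genes 41 were kept (95.3%), with Tyms and the polymerase subunit Pold1 (-1.32) past the threshold. Of 41 genes of RNA polymerase II and its general factors 39 were kept (95.1%); the largest subunit, Polr2a, named after its values were seen, fell by 0.77 ± 0.11 without overlap, and Gtf2h4 was the 1 member past the threshold (-1.76). The count kept was 27 of 30 for the spliceosome (90%), with Snrpb past the threshold (-1.07, and -0.95 against FGO replicates 9 to 18 alone). It was 21 of 23 for glycolysis (91.3%), with Ldha past the threshold (-1.71), though not against FGO replicates 1 to 8 alone (-0.77). For cholesterol synthesis 19 of 21 were kept (90.5%), with Pmvk past the threshold (-2.36). These shares stand beside 80% of all genes, 94.9% of those at 10 to 100 CPM and 98.9% of those at 100 CPM or more. Ldhb, a lactate dehydrogenase subunit, stood at a median of 1112 CPM in FGOs and 1105 CPM in MII oocytes (log2 -0.01 ± 0.03). Of 14 genes often used as references for PCR, 7 fell at any fold, where 22.6% of all genes did. Among these, H2afz (-1.05), Ppia (-0.72) and Gapdh (-0.36) fell, whereas Hprt (-0.08) and Actb (0.12) had no call. H2afz fell by 0.82 against FGO replicates 9 to 18 alone. Of 7 measured genes of zygotic genome activation, 6 were kept and 1, Tcstv1, fell by less than 2-fold (-0.31), without a call against FGO replicates 9 to 18 alone (-0.18).

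The kept transcripts of highest level per length were, in order, Gm23935, Zbed3, Gdf9, Elobl, H1foo, Gm20594, Rn7sk, Gm10925, Padi6, Npm2, Ldhb, D6Ertd527e, Nlrp14, Hist1h1a and Bcl2l10. Per kilobase of exon, Zbed3, a component of the subcortical maternal complex, had 1718 CPM in FGOs and 2122 CPM in MII oocytes, Gdf9 1053 and 1065 CPM, H1foo, the oocyte linker histone, 994 and 1120 CPM, and Npm2, the nucleoplasmin that decondenses sperm chromatin, 709 and 706 CPM. Several of them fell or rose within the 2-fold limit. Elobl fell by 0.68 ± 0.07, Nlrp14 by 0.65 ± 0.07 and Padi6, of the cytoplasmic lattices, by 0.20 ± 0.05, while Zbed3 rose by 0.30 ± 0.06, D6Ertd527e by 0.28 ± 0.08, H1foo by 0.17 ± 0.06 and Bcl2l10, an anti-apoptotic Bcl2 relative, by 0.18 ± 0.06. D6Ertd527e had 0.11 against FGO replicates 9 to 18 alone and Bcl2l10 0.14 against replicates 1 to 8 alone, neither of them called. Rn7sk, the 7SK RNA that holds the elongation factor P-TEFb, had 0.16 ± 0.18. Gm23935 is annotated at 57 bp, so that its level per length is not comparable with the others, and Gm10925 is a nuclear copy of a mitochondrial gene, as described next.

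The 31 higher genes were mostly copies of other genes. By annotation 15 were processed pseudogenes, 4 unprocessed pseudogenes and 6 protein coding. Over all tested genes of these classes, 2.81% of 534 processed pseudogenes, 6.06% of 66 unprocessed pseudogenes and 0.0459% of 13073 protein-coding genes were higher. The share over all genes was 0.196%. A transcript of 17 of them matched a transcript of another coding gene at 90% identity or more over 80% of its length or more, and 6 matched a mitochondrially encoded gene. Reads of such pairs can be split by the counting, so these values are uncertain. Matches to coding genes were sought only for the higher genes, so the share of all tested genes with such a match is not known. The genes were chosen here for passing 2-fold, so the value of the matching gene is given beside 5 of them without a comparison. Gm11560 (log2 1.23 ± 0.26) matched Ybx1 at 95.1% (log2 0.43), Gm6493 (1.07 ± 0.23) matched Tnpo1 at 97.2% (0.12), Gm19587 (1.34 ± 0.31) matched Arf1 at 94.8% (0.27), Tpm3-rs7 (1.02 ± 0.24) matched Tpm3 at 99.2% (0.14) and Amd2 (1.00 ± 0.22) matched Amd1 at 99.6% (-0.19). Of the 20 with the lowest p-values, the others of this kind were Gm3470, Gm13414, Gm20826, Gm42887 and Spcs2-ps.

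Gm43841, a processed pseudogene on chromosome 5 (7276324 to 7276909), was the 1 gene past both thresholds in which all MII oocytes lay above all FGOs. It stood at 0.234 to 1.84 CPM in FGOs (median 0.811) and 4.18 to 6.66 CPM in MII oocytes (median 5.61), a 6.23-fold rise (log2 2.64 ± 0.21, adjusted p = 6.6e-15, quasi-likelihood test), and it was called against both sets of FGOs. No coding or mitochondrial transcript matched it at these limits. Ace, which encodes angiotensin-converting enzyme, had a median of 0.275 CPM in MII oocytes against 0.324 in FGOs. It stood at 3.52, 1.56 and 12.7 CPM in MII replicates 6, 8 and 9 and at 0 to 0.507 CPM in the other MII oocytes. The highest FGO stood at 0.788 CPM. Without MII replicate 9 the log2 fold change was 1.23 with an adjusted p of 0.069 (quasi-likelihood test). Replicates 6, 8 and 9 also stood apart in markers of other cells, as described below, and the part of such cells in Ace was not tested. Gm16070 and Gm26461 had no match either. Against FGO replicates 1 to 8 alone 22 of the 31 were called, against replicates 9 to 18 alone 12, and against both 5.

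The mitochondrial genes themselves had no counts, but 14 nuclear genes that match them at 90% identity or more over 80% or more of their length were tested, of which 6 rose by over 2-fold, 7 rose less and 1, Gm28437, had no call. Their summed level was 2676 to 6735 CPM in FGOs (median 3327) and 5144 to 7433 CPM in MII oocytes (median 5757), an overlap due to FGO replicates 2 and 3. Gm28439, identical to mt-Nd4 over 876 bases, stood at 183 to 610 CPM in FGOs (median 232) and 428 to 707 CPM in MII oocytes (median 520; log2 1.10 ± 0.13, adjusted p = 9.6e-10, quasi-likelihood test). Gm28438 (mt-Nd3, log2 1.33 ± 0.12), Gm4076 (mt-Nd5, 1.28 ± 0.13), Gm10222 (mt-Nd4l, 1.11 ± 0.13), Gm11407 (mt-Nd5, 1.04 ± 0.12) and Gm11408 (mt-Nd6, 1.03 ± 0.13) rose alongside. All 6 were called against FGO replicates 9 to 18, and 2 against replicates 1 to 8. Whether these counts come from the nuclear copies or from mitochondrial RNA was not tested. Their summed level in mutant FGOs was 1309 to 2017 CPM in Dnmt3a ADD FGOs, 1693 to 2740 CPM in Dnmt3L ADD FGOs and 2081 to 3529 CPM in double mutant FGOs.

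The largest falls by size among genes at 10 CPM or more were chosen after their values were seen. Inhbb, the beta B subunit of inhibin and activin, stood at 2.14 to 31.2 CPM in FGOs and had no count in any MII oocyte, at least 493-fold lower when 3 counts over the 10 libraries are taken as the floor. Ccnd2, cyclin D2, stood at 20.8 to 412 CPM in FGOs (median 163) and 0 to 0.951 CPM in MII oocytes (median 0.165; log2 -9.01 ± 0.74, adjusted p = 1.1e-14, quasi-likelihood test). The spread among FGOs was wide, but their lowest value was still far above the highest MII oocyte. C130074G19Rik fell from a median of 156 to 1.32 CPM, Cenpb, which binds a repeat of centromeric DNA, from 32.4 to 0.599, Cplx2, a regulator of vesicle fusion, from 8.28 to 0, Alpk3, a kinase, from 14 to 0.352, Zeb2, a transcription factor, from 21.7 to 0.0876 and Myocd, a cofactor of smooth muscle transcription, from 3.34 to 0.068 CPM. Gm45884 fell from 10.0 to 0.331 CPM. Gm26917, annotated as a long non-coding RNA, ran from 11.7 to 1927 CPM among FGOs and fell from a median of 422 to 4.04 CPM. In Gm26917 MII replicates 6, 8 and 9 stood at 28.4, 51.6 and 80.4 CPM and the other 7 at 2.45 to 4.78 CPM, and in Zeb2 these 3 libraries stood at 4.12, 1.83 and 3.59 CPM and the others at 0 to 0.182 CPM. The same 3 libraries stood apart in markers of other cells, as described next, and the part of such cells in these values was not tested.

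Markers of the follicle cells that surround an FGO also fell. Of 22 granulosa and cumulus markers tested, 14 fell by over 2-fold (63.6%, against 9.0% of all genes) and 5 were kept. The median log2 fold change of the 22 was -2.38, which stays the same with genes at 0 in MII oocytes set at their bound. Of the 27 listed, 5 had no count in any MII oocyte. Amh, the hormone of granulosa cells of growing follicles, stood at 0.503 to 6.45 CPM in FGOs and at 0 in all MII oocytes. Inha stood at 2.79 to 25.9 CPM in FGOs and at 0 in 7 of 10 MII oocytes, and Hsd17b1, an enzyme of estradiol synthesis, at 1.07 to 6.77 CPM and at 0 in 6 of 10. The groups did not overlap for these 3 genes. In contrast, Has2, the hyaluronan synthase of the expanding cumulus, rose by 0.92 ± 0.35 on the log2 scale from a median of 0.573 to 1.22 CPM, though it was called against neither set of FGOs alone, and Ptgs2 had no call. The sum over all 27 listed markers was 370 to 560 CPM in FGOs and 335 to 403 CPM in MII oocytes, mostly from Serpine2, Nr5a2 and Slc18a2, which were kept. Of 6 theca and interstitial markers 3 fell by over 2-fold (Cyp17a1, Cyp11a1 and Star). Of 12 stroma and muscle markers 6 did so (Acta2 and 5 collagens) and of 6 oviduct markers 2 (Krt7 and Ovgp1), whereas all 6 endothelium and blood markers were kept. Beside these counts, 14.9% of all genes at 1 to 10 CPM in FGOs and 20.7% of those under 1 CPM fell by over 2-fold. Some markers rose. At any fold, 15 granulosa and cumulus markers fell and 2 rose, and 7 stroma and muscle markers fell and 2 rose. For endothelium and blood 1 fell and 1 rose, for theca 4 fell and 0 rose, and for oviduct 3 fell and 0 rose. Listed markers without a count in any MII oocyte numbered 2 of 8 for theca, 4 of 17 for stroma and muscle, 1 of 12 for oviduct and 6 of 17 for endothelium and blood. Sums over these lists in FGOs and MII oocytes were 20 to 82.3 and 11.6 to 25.4 CPM for theca, 248 to 483 and 357 to 500 CPM for stroma and muscle, 21.0 to 52.9 and 14.9 to 23.8 CPM for oviduct and 116 to 174 and 143 to 177 CPM for endothelium and blood.

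The 25 markers of other cells that fell summed to 59.5 to 314 CPM in FGOs (median 95.9) and 3.09 to 38.1 CPM in MII oocytes (median 3.95). They were picked for their fall in this same comparison, so the gap between FGOs and MII oocytes was fixed in advance. In MII oocytes 3 libraries stood apart, replicates 6, 8 and 9 at 38.1, 17.1 and 32.5 CPM, with the other 7 at 4.35 CPM or less. Without these 3 libraries, a fit added after seeing the data, 1579 of 15950 genes were lower and 29 higher by over 2-fold. Still called were 1303 of the 1421 lower genes and 26 of the 31 higher genes, and Amd2 fell short of 2-fold (0.90). Of the 52 markers of other cells tested, 27 fell, 24 of them among the 25. In mutant FGOs the 25 markers summed to 30.7 to 97.9 CPM (Dnmt3L ADD), 23.4 to 214 CPM (Dnmt3a ADD) and 12.6 to 24.9 CPM (double mutant). The pick favours genes that are high in wild-type FGOs, so these sums are not compared with the wild-type sums. The median coefficient of variation of the 25 markers over the 18 FGOs was 72.2%, against 14% for the 28 ribosomal protein genes that fell. It was 41.4% for all 191 lower genes at 10 CPM or more, 69.0% for the 1230 below that level, and 13.6% for 8062 kept genes at 10 CPM or more. RNA of adhering cells and RNA of the oocyte cannot be told apart in these libraries, and the part of such cells in the loss of rare transcripts was not tested. Of 19 immediate early genes, which respond to handling and stress, 5 fell by over 2-fold (26.3%) and 13 were kept. Those that fell were Jun, Gadd45b, Myc, Fos and Ier2, all at about 2 CPM or less on average in FGOs. The share that fell was 9.0% over all genes, 14.9% at 1 to 10 CPM and 20.7% under 1 CPM in FGOs.

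**Figure D4:**
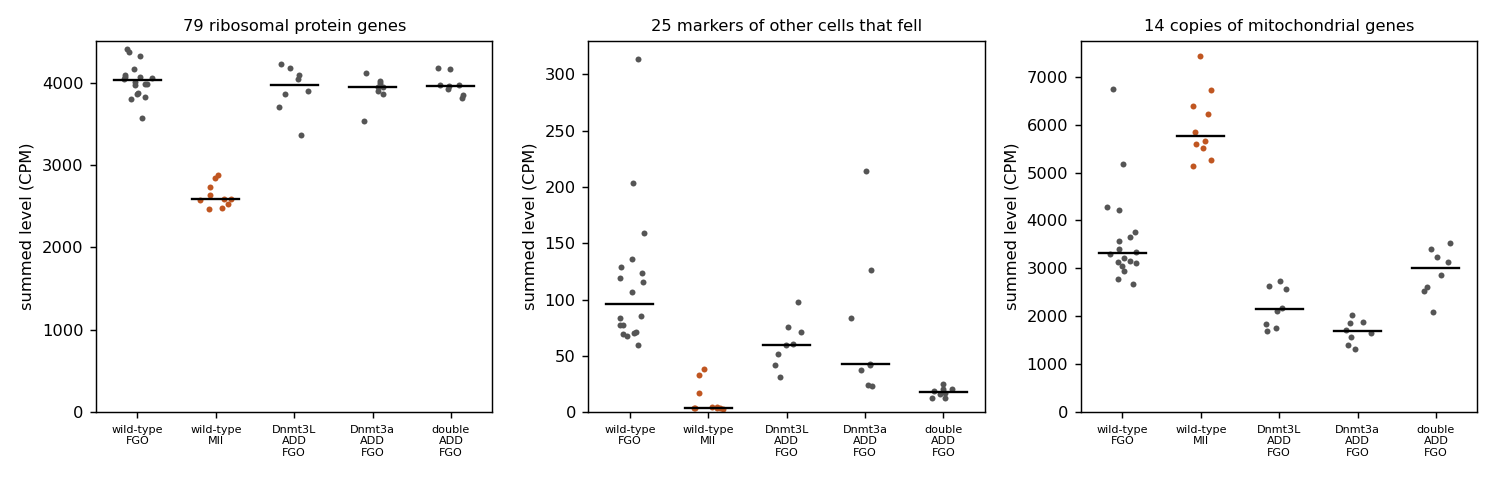
Summed level in CPM per oocyte (points, with the group median as a bar) of 79 ribosomal protein genes, of the 25 markers of follicle, stroma and oviduct cells that fell, and of 14 nuclear copies of mitochondrial genes, in wild-type FGOs, MII oocytes (orange) and FGOs of 3 ADD mutant genotypes. Ribosomal sums of 2473 to 2886 CPM in MII oocytes lie below all FGOs, marker sums vary widely among FGOs, and mitochondrial copy sums have their highest median in MII oocytes, with FGOs of high sums overlapping them. The 25 markers were picked for their fall in this comparison, so their gap between wild-type FGOs and MII oocytes was fixed in advance.

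Of 79 small nucleolar RNAs tested, 47 fell by over 2-fold (59.5%), 14 fell less and 14 were kept, with a median log2 fold change of -1.19. Of these 47, 44 were called against FGO replicates 1 to 8 and 2 against replicates 9 to 18, so that the count depends on the set of FGOs. Many of these RNAs lie in introns of other genes, and reads of both cannot be told apart without knowledge of the counting. Rmrp, the RNA of RNase MRP, stood at 8.03 to 63.4 CPM in FGOs and 0.0876 to 4.19 CPM in MII oocytes (log2 -4.16 ± 0.52), Malat1, which stays in nuclear speckles, fell from a median of 128 to 25.3 CPM (-1.61 ± 0.45, overlapping groups) and Kcnq1ot1, a long RNA of an imprinted domain, from 6.16 to 1.83 CPM (-2.36 ± 0.55, overlapping groups). These 3 were named after their values were seen. Rmrp was called against both sets of FGOs, whereas Malat1 (-0.85) and Kcnq1ot1 (-0.90) were not called against replicates 9 to 18 alone. Malat1 stood at 147, 81.6 and 211 CPM in MII replicates 6, 8 and 9 and at 7.57 to 27.9 CPM in the other 7, and Rmrp at 4.19, 2.92 and 3.51 CPM and at 0.0876 to 0.435 CPM. These are the 3 libraries that stood apart in markers of other cells, whose part in these values was not tested, and without them the log2 fold changes were -3.16 for Malat1 and -6.39 for Rmrp. Of 513 lincRNAs 56 fell by over 2-fold (10.9%) and of 13073 protein-coding genes 1104 (8.44%), shares near the 9.0% of all genes, whereas the share was 33.0% for 173 genes of the class TEC, transcripts still to be tested by experiment. TEC genes had a median level of 0.802 CPM in FGOs, and 20.7% of all genes under 1 CPM fell by over 2-fold. Of the 57 TEC genes that fell, 43 were called against FGO replicates 1 to 8, 19 against replicates 9 to 18 and 16 against both.

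The mutant FGOs give a second view of the level before maturation, with the same 10 MII oocytes. Summed ribosomal protein transcripts were 3370 to 4235 CPM in Dnmt3L ADD FGOs, 3542 to 4116 CPM in Dnmt3a ADD FGOs and 3811 to 4182 CPM in double mutant FGOs, all above the 2886 CPM of the highest MII oocyte. Mean Zp3 was 718, 637 and 977 CPM in these groups, mean Cpeb1 589, 577 and 652 CPM and mean Dnmt1 4048, 4009 and 3751 CPM, against wild-type FGO means of 845, 611 and 4104 CPM. Inhbb and Inha are given as markers of other cells that fell, a choice that favours genes high in wild-type FGOs. Mean Inhbb was 6.68, 2.66 and 1.56 CPM and mean Inha 3.40, 2.62 and 0.892 CPM in the mutants, against wild-type means of 11.7 and 9.82 CPM. Ccnd2 stood at 243, 61.1 and 94.5 CPM on average in the mutants, still far above the MII oocytes.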

How the data were processed

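The authors aligned reads of single-oocyte SMART-Seq HT libraries to mm10 with STAR, and deposited raw counts per gene for 51734 symbols. The study's methods name featureCounts and HTSeq for counting; strand setting, annotation and treatment of reads with several positions are not given in the sources used here. Rows of 52 oocyte libraries were joined by symbol. The embryo tables were not used here.

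The test was the quasi-likelihood test of edgeR 4.0.16 (R 4.3.3; TMM scaling, filterByExpr with a minimum count of 10, Benjamini-Hochberg adjustment) in 1 fit of 52 libraries with a coefficient per group. Genes at an adjusted p under 0.05 and a fold over 2 were called, and genes whose 90% interval lay within 1 on the log2 scale were called kept. The common biological coefficient of variation was 23.8%. Libraries of a group differed beyond counting noise (lowest chi-square per degree of freedom 5.99). Floors cover counting error only. Levels are CPM on TMM-scaled totals, and per length they are divided by exon length. Library measures were compared by permutation tests (100000 resamples, scipy 1.17.1). DESeq2 1.42.0 and edgeR's exact test were alternatives. Transcript features came from GENCODE M21, which matched 92.1% of symbols, and copies from blastn 2.17.0.

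On counts simulated for MII against wild-type FGOs (15784 genes, 200 changed by 2 on the log2 scale) the test found 192 with 0 wrong calls, and 92.4% of unchanged genes were called kept. The simulated oocytes of a group differed at random only, without sets of FGOs or MII libraries that stand apart. Errors from such differences were not measured.

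Named genes were the 20 of lowest p among lower genes at 10 CPM or more, the 20 of lowest p among higher genes, the 15 kept genes of highest level per length, and members of 28 lists; some genes that these rules select are not reported here. The comparison, lists and rules were chosen with earlier results of these data known. Alternatives were other normalizations, filters, tests and libraries, FGO replicates 1 to 8 or 9 to 18 alone, a replicate block, other thresholds and each library left out.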

Additional observations from a re-analysis of the deposited data

Results flagged for a closer look

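In 59 sets of values over the 10 MII oocytes, 7 had an MII oocyte far from the others by Dixon's criterion, which chance meets in about 1 of 20 groups. MII replicate 8 was highest for Zp3 at 298 CPM (next 227), for Rps13 at 11.1 CPM (next 8.76) and for Tyms at 33.4 CPM (next 24.3). The same oocyte had the highest value in 14 of the 20 lower genes of lowest p-value at 10 CPM or more and in 71 of the 191 lower genes at 10 CPM or more, and its 25 markers of other cells summed to 17.1 CPM.

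MII replicate 9 was highest for Ace at 12.7 CPM (next 3.52), and the call of Ace was lost without it. MII replicate 3 was highest for Gm26461 at 2.90 CPM (next 1.59). MII replicate 5 was highest for Gm20594 at 499 CPM (next 407) and for Gm10925, a copy of mt-Atp6, at 1145 CPM (next 948).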

How the results depend on the processing

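With the 2-fold limit, 91.8% to 98.7% of calls were lower in MII oocytes under the settings tried, whereas with no minimum fold 3560 genes were lower and 2610 higher. With no filter on low counts 4034 genes were lower and 166 higher among 41174 tested. Against FGO replicates 1 to 8 alone 155 genes were higher, and against replicates 9 to 18 alone 788 were lower; the cause was not tested. The share of the 100 leading genes passed against replicates 1 to 8 (difference 0.344 percentage points), and that of the 500 leading genes did so against all FGOs (1.17). Without TMM the median change of all genes moved to -0.11 on the log2 scale, with 1548 lower and 21 higher. DESeq2 called 1453 lower and 35 higher, the 28 wild-type libraries alone 1023 and 26, and edgeR's exact test 1028 and 26. Leaving out 1 library at a time gave 1249 to 1453 lower, 25 to 43 higher and 12439 to 12746 kept genes. Ribosomal protein genes lower by over 2-fold numbered 26 to 30 under the settings tried, a count added after seeing the data. Over named genes, 2516 of the values kept their call and 62 lost it. Among the lower and higher genes 0 values reversed in direction. For the kept genes only the interval was checked, without the direction. Gm10925, a kept gene, lost its call by a larger rise (0.90) against FGO replicates 9 to 18 alone. Genes not tested under a setting were left out of these counts. The replicate numbers did not pair the oocytes (correlations of deviations from -0.12 to 0.07 over 10 pairs, 0 MII oocytes closest to their own number). With the number as a replicate block, 1585 genes were lower, 121 higher and 11665 kept. Depth limits the rare transcripts, and the mitochondrial share could not be compared under any setting, since those genes have no counts.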
